A study of Drosophila melanogaster with 6 samples.

Results

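The 10 genes described here were *Sod1*, *Sod2*, *Sod3*, *Cat*, *Jafrac1*, *Gclc*, *Gclm*, *Trx-2*, *cnc* and *Keap1*, the core antioxidant enzymes of *Drosophila melanogaster* and the regulator pair that controls many of them. They were taken by their FlyBase symbols, from a list drawn up with earlier results of these data known, and all 10 were among the 17492 genes of the count table. The samples were whole heads of the strain 5905, a *w1118* line that served the study as wild type, and its methods describe the aging of adult males. Heads of 30d flies, in 3 samples, were set against heads of 3d flies, also in 3 samples, and both ages carried the same *w* mutation. The labels do not say how many heads went into a sample or whether the samples came from separate cultures, so the p-values below measure the spread between these samples, which may in part be technical.

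Superoxide dismutases turn superoxide into hydrogen peroxide, which catalase, peroxiredoxins and related peroxidases then remove. Flies lack glutathione reductase, so thioredoxin and thioredoxin reductase recycle both peroxiredoxins and oxidized glutathione, at the expense of NADPH. The transcription factor encoded by *cnc*, the fly counterpart of mammalian Nrf2, pairs with a small Maf protein and switches on detoxifying and antioxidant genes, while Keap1 binds it and holds it back until oxidants or electrophiles release it.

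The libraries held between 3176380 and 3741860 reads on genes, and levels are given as CPM, the reads of a gene relative to the total of its library, after TMM scaling of the libraries to each other. Age was tested by edgeR's quasi-likelihood test on the 8773 genes with enough reads, all 10 genes included, and a gene is said to have risen or fallen only where its p-value, adjusted over those genes, was under 0.05. By that measure 30.4% of all genes tested changed, 14.4% being higher and 16.1% lower in 30d heads. Those were 1259 and 1410 genes, and with scaling by library size alone the split was 1715 higher and 1053 lower. Of the 12 muscle markers, the 10 tested all fell (median log2 fold change -1.004, most in *Act88F* at -1.45), and the summed level of the list was 1970 to 2055 CPM in 30d heads, against 3418 to 5144 CPM in 3d heads, where replicate 1 stood highest. Neuron markers fell in 3 of 4 cases (most in *Syt1*, at -0.84 on the log2 scale) and glia markers in 2 of 4 (most in *Eaat1*, at -0.57), while the 4 hemocyte markers tested all rose, and 1 of 5 fat body markers tested rose, *Apoltp*, at 0.34, while *Lsp1beta*, at 0.82, did not pass. Of the 7 photoreceptor markers, 2 fell, *ninaC* at -0.50 and *inaD* at -0.65, and 0 rose, and the median was -0.22. Their sum, with the rhodopsin gene *ninaE* as its largest part, was 52972 to 64745 CPM at 30d and 47935 to 56126 CPM at 3d. The yolk protein gene *Yp1* had 4 to 14 reads per library at 30d and 0 at 3d, and the male-specific RNA *roX1* stood at 1326 to 1404 CPM in 30d heads and 1978 to 2068 CPM in 3d heads. Of the 5 sex markers 3 could be tested, of which *roX1* and *roX2* fell, at -0.58 and -0.74 on the log2 scale, and *Yp3* rose, at 0.42.

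**Figure D1:**
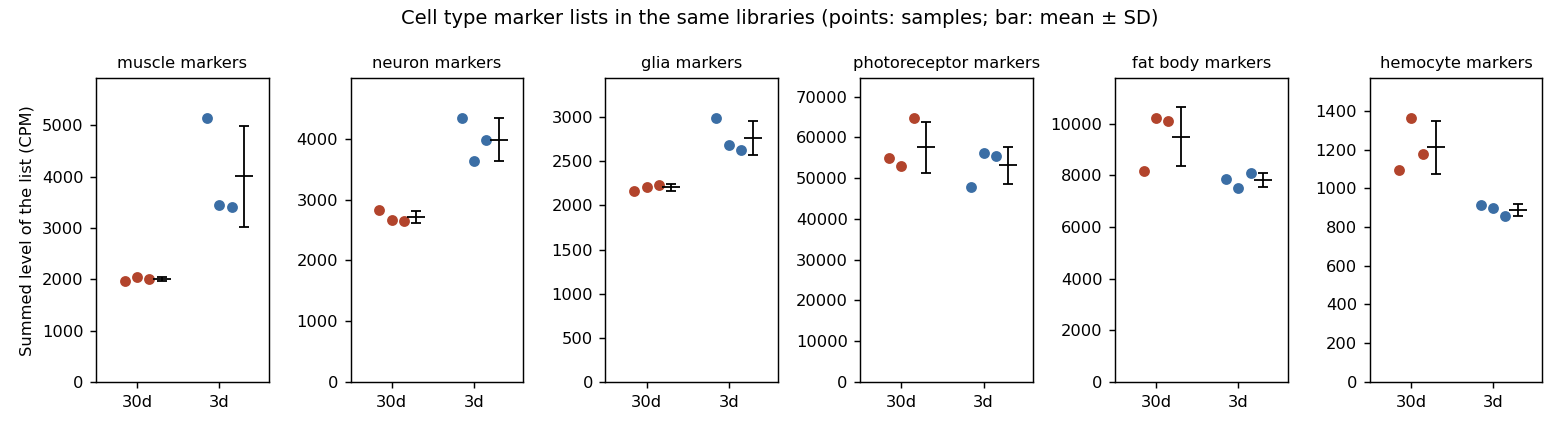
Summed level in CPM of 6 lists of cell type markers in each library, with 30d left of 3d, points for samples and a bar for the mean ± SD. The muscle list lay between 1970 and 2055 CPM in all 30d samples and between 3418 and 5144 CPM in the 3d samples, and the hemocyte list was higher in each 30d sample.

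Of the 10 genes, *cnc*, *Jafrac1* and *Gclc* rose and *Sod2* fell in 30d heads. The changes were modest, with percent changes of -22.9% for *Sod2* and 18.9% to 38.7% for the genes that rose, and the other 6 genes did not pass the test. A share of 3 of 10 higher and 1 of 10 lower stands beside a background of 14.4% and 16.1%, and the 4 of 10 changed in either direction beside 30.4%. The ages did not overlap in 7 of the 10 genes, with 30d above in 5 and below in 2, where 44.8% of all genes tested had no overlap (22.3% with 30d above and 22.5% below). The median log2 fold change of the 10 genes was 0.18, against 0.02 for all genes tested.

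**Figure D2:**
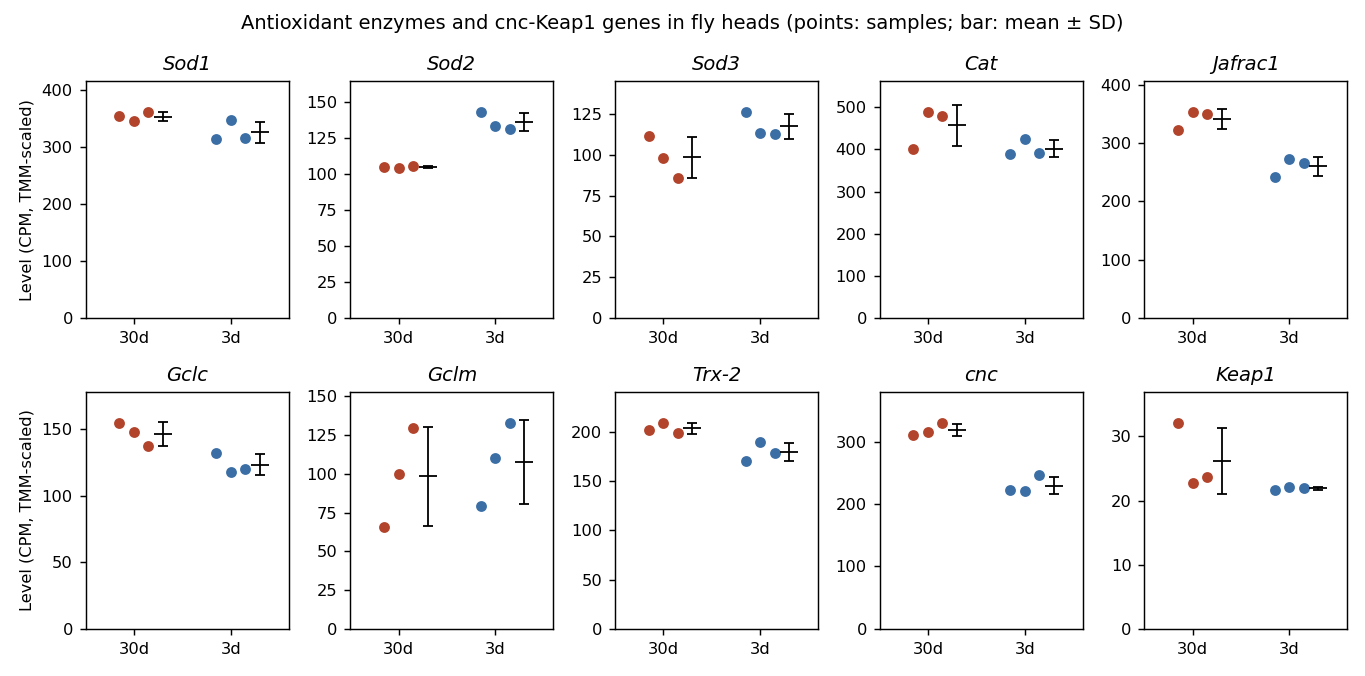
Level in CPM of each of the 10 genes in each sample, with 30d left of 3d, every axis starting at 0, points for samples and a bar for the mean ± SD. The 3 samples of *cnc* at 30d lie between 310.5 and 330.2 CPM, all above the 3d samples, while those of *Gclm* spread as widely within an age as between the ages.

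*cnc* (FBgn0262975, chromosome 3R of dm6, 23185580 to 23226711, minus strand) changed the most of the 10. Its level was 310.5, 315 and 330.2 CPM in the 30d heads, against 222, 221 and 246 CPM in the 3d heads. The ages did not overlap, and the samples of each age lay close together. The mean was 319 ± 10.3 CPM at 30d and 230 ± 14.0 CPM at 3d (SD, n = 3 each), which is 0.47 ± 0.08 SE in log2 units (edgeR adjusted p = 0.000709). The annotation lists 16 transcripts for this gene, which encode long and short forms of the factor that differ in their response to Keap1. The counts are per gene, so the rise cannot be assigned to a form. With any 1 of the 6 samples left out the log2 fold change stayed between 0.44 and 0.52, and *cnc* passed the test each time.

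Its inhibitor *Keap1* (FBgn0038475, 3R, 17073942 to 17079945, minus strand) had the lowest level per length of the 10. It stood at 32.1, 22.7 and 23.7 CPM in the 30d heads, against 21.7, 22.1 and 21.9 CPM in the 3d heads. Although the ages did not overlap, 30d replicate 1 stood far above the other samples, and the log2 fold change of 0.26 ± 0.15 SE (edgeR adjusted p = 0.216) did not pass. Without that replicate the log2 fold change was 0.08. The small Maf partner *maf-S*, with 61.1 ± 5.11 CPM at 30d and 56.1 ± 4.89 CPM at 3d (SD, n = 3 each), did not pass either, at a log2 fold change of 0.12. The ubiquitin ligase genes that serve Keap1, *Cul3* and *Roc1a*, were at -0.03 and -0.02 on the log2 scale, with standard errors of 0.08 for each, and turned to 0.05 and 0.06 with scaling by library size alone. Of the 5 genes of this group 1, *cnc*, passed the test, where 30.4% of all genes tested did.

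By a likeness measured over the 6 samples, the root mean square difference between log2 CPM profiles after each was centred on its mean, the genes nearest to *cnc* among 6442 genes with at least 50 reads on average were *yuri* (difference 0.025), *CG4390* (0.036) and *CG11141* (0.039). Their log2 fold changes were 0.50, 0.45 and 0.52. Values near that of *cnc* follow from choosing genes by their profile over both ages, and shared control was not tested. Within the 10 genes, *Jafrac1* was the nearest to *cnc*, at a difference of 0.083, and the closest pair of all was *Sod1* and *Trx-2*, at 0.055.

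Of the 3 superoxide dismutases, *Sod2* alone passed the test, where 30.4% of all genes tested did. *Sod2* (FBgn0010213, 2R, 16772785 to 16773915, minus strand) encodes the manganese enzyme of the mitochondrial matrix. It stood at 105, 104 and 106 CPM in the 30d heads, against 143, 134 and 132 CPM in the 3d heads. All 30d samples lay below all 3d samples, and the spread at 30d was the smaller. That spread was smaller than counting error on 369 to 385 reads would give, so it understates the uncertainty. *Sod2* fell by 22.9%, with means of 105 ± 0.685 CPM at 30d and 136 ± 6.23 CPM at 3d (SD, n = 3 each, log2 fold change -0.38 ± 0.07 SE, edgeR adjusted p = 0.00234). The fall held with any of the 6 samples left out, with log2 fold changes from -0.40 to -0.34. *Sod2* is a nuclear gene, and reads of the mitochondrial genome itself took 7.35% to 7.91% of the 30d libraries, against 9.97% to 11.0% of the 3d libraries, and the muscle markers fell as well. The neuron markers summed to 2653 to 2830 CPM at 30d, against 3636 to 4346 CPM at 3d. The part of any of these in the fall of *Sod2* was not tested, and in these whole heads fewer cells of a type and less RNA per cell cannot be told apart. Without 3d replicate 1, the sample with the highest sum of muscle markers, the log2 fold change of *Sod2* was -0.34. The muscle sums of 3d replicates 2 and 3, 3452 and 3418 CPM, still lay above the 1970 to 2055 CPM at 30d. The part of muscle was therefore not tested by that fit either.

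*Sod1* (FBgn0003462, 3L, 11112281 to 11113740, minus strand), the copper and zinc enzyme of the cytosol, showed 354, 345 and 361 CPM in the 30d heads, against 314, 347 and 316 CPM in the 3d heads. The ages overlapped through 3d replicate 2. The change amounted to 0.12 ± 0.08 SE in log2 units (edgeR adjusted p = 0.278). *Sod3* (FBgn0033631, 2R, 11380347 to 11384114, minus strand), the extracellular enzyme, gave 111, 97.9 and 85.8 CPM in the 30d heads, against 126, 113 and 113 CPM in the 3d heads. Each 30d sample was lower than each 3d sample, but the highest at 30d lay just under the lowest at 3d. Its log2 fold change of -0.25 ± 0.10 SE (edgeR adjusted p = 0.0671) did not pass, and passed without 30d replicate 1, at -0.35. The copper chaperone gene *Ccs*, whose product loads copper into Sod1, was low, with 15.1 ± 3.39 CPM at 30d and 12.4 ± 1.79 CPM at 3d (SD, n = 3 each), and did not pass at 0.27.

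The cytosolic peroxiredoxin *Jafrac1* (FBgn0040309, X, 13329824 to 13331994, plus strand), named *Prx2* in the current annotation, removes hydrogen peroxide with electrons from thioredoxin. It had 322, 353 and 349.6 CPM in the 30d heads, against 242, 273 and 265 CPM in the 3d heads. The ages did not overlap. *Jafrac1* rose by 31.2% (log2 fold change 0.39 ± 0.08 SE, edgeR adjusted p = 0.00273), and the log2 fold change stayed between 0.34 and 0.43 with any sample left out. *Cat* (FBgn0000261, 3L, 18822604 to 18828188, plus strand), the peroxisomal catalase, had 402, 489 and 479.5 CPM in the 30d heads, against 389.6, 425 and 391 CPM in the 3d heads. The ages overlapped, since 30d replicate 1 lay within the range of the 3d samples. Its log2 fold change of 0.18 ± 0.09 SE (edgeR adjusted p = 0.142) did not pass, and it passed without 30d replicate 1, at 0.27, and with scaling by library size alone, at 0.26.

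Of the 10 genes on the list of peroxide removal, 9 had enough reads, of which 3 rose and 0 fell, beside 14.4% and 16.1% of all genes tested, with a median log2 fold change of 0.18. Besides *Jafrac1* these were *Irc* and *PHGPx*. *Irc*, the extracellular immune-regulated catalase, known from the gut during infection, had 272, 277 and 243 CPM in the 30d heads, against 158, 150.2 and 145.5 CPM in the 3d heads. It rose by 0.80 on the log2 scale (± 0.08 SE, edgeR adjusted p = 3.23e-05), more than any of the 10 core genes. *PHGPx*, a glutathione peroxidase homolog that in flies takes electrons from thioredoxin, had 169, 154 and 165 CPM in the 30d heads, against 117, 121.5 and 106 CPM in the 3d heads, and rose by 0.50 (± 0.08 SE, edgeR adjusted p = 0.000664). The mitochondrial peroxiredoxin *Prx3* did not pass, at -0.06 with a standard error of 0.10, nor did *Jafrac2*, *Prx6005*, *Prx2540-1* or *Prx2540-2*, which all had fewer than 30 CPM in each sample. *Prx5* is listed at 0 in all 6 libraries, and in the annotation used here all of its exon bases are shared with *CG7215*, and reads in shared bases are left out under the counting rule. The annotation behind the counts may differ, and whether this overlap gave the 0 was not tested.

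*Trx-2* (FBgn0040070, 2L, 9613166 to 9616404, plus strand), the general cytosolic thioredoxin and named *Trx2* in the current annotation, gave 202, 209 and 199 CPM in the 30d heads, against 170.2, 189 and 178 CPM in the 3d heads. Each 30d sample was above each 3d sample, but by little, and the log2 fold change of 0.18 ± 0.08 SE (edgeR adjusted p = 0.0903) did not pass. It passed with scaling by library size alone, at 0.26. The germline thioredoxins *TrxT*, known from testis, and *dhd*, known from ovary, had at most 5 and 3 reads in any library, and the reductase gene *Trxr2* at most 1 read, so none of these was tested.

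*Trxr1*, the thioredoxin reductase that keeps Trx-2 reduced, rose in 30d heads. It showed 244, 266 and 251 CPM in the 30d heads, against 173, 188 and 191 CPM in the 3d heads, without overlap. The change amounted to 0.46 ± 0.08 SE in log2 units (edgeR adjusted p = 0.000803). Of its exon bases 13.8% are shared with *sni* on the other strand, and reads within that stretch may not have been counted for it. *Txl*, a thioredoxin-like protein, rose by 0.34 (± 0.11 SE, edgeR adjusted p = 0.0314), and *Grx5*, a glutaredoxin known from yeast for its part in iron-sulfur cluster assembly, fell by 0.38 (± 0.13 SE, edgeR adjusted p = 0.0488). Both calls were weak. *Txl* did not pass without 30d replicate 2 (0.31), 30d replicate 3 (0.35), 3d replicate 1 (0.27) or 3d replicate 2 (0.31). *Grx5*, whose ages overlapped, passed in only 1 of the 6 fits that left out a sample, the one without 3d replicate 3, with log2 fold changes from -0.50 to -0.25 over the 6. *Grx1* was at -0.17 and did not pass. In all, 2 of the 5 genes of this group that could be tested rose and 1 fell, beside 14.4% and 16.1% of all genes tested.

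Glutathione is made in 2 steps, the first by glutamate-cysteine ligase, a complex of a catalytic subunit, *Gclc*, and a modifier subunit, *Gclm*. *Gclc* (FBgn0040319, X, 8102181 to 8116147, minus strand) had 155, 147 and 137 CPM in the 30d heads, against 132, 118 and 120.0 CPM in the 3d heads. The ages did not overlap, and *Gclc* rose by 18.9% (log2 fold change 0.25 ± 0.08 SE, edgeR adjusted p = 0.0337). This was the weakest of the calls among the 10 genes. It was lost without 30d replicate 1 (0.21), 30d replicate 2 (0.25), 3d replicate 2 (0.22) or 3d replicate 3 (0.23), and in DESeq2's Wald test (adjusted p = 0.144).

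*Gclm* (FBgn0046114, 3R, 22685006 to 22686510, minus strand) had 65.9, 99.8 and 129.6 CPM in the 30d heads, against 79.2, 110.1 and 133 CPM in the 3d heads. It was the most variable of the 10 genes, with a biological coefficient of variation, the relative spread between samples that edgeR estimates, of 0.176 where the common value of all genes was 0.0857, and in both ages replicate 1 was the lowest. The log2 fold change of -0.13 ± 0.21 SE (edgeR adjusted p = 0.666) did not pass, and leaving out 30d replicate 1 turned it to 0.09, leaving out 3d replicate 3 to 0.05. In this fit with age only, the standard error of *Gclm*, 0.21, was close to the whole change of *Gclc*, 0.25. With the replicate number as a block *Gclm* was at -0.14 (edgeR adjusted p = 0.241) and did not pass either. Of the remaining genes of glutathione handling, *Ggt-1*, a gamma-glutamyl transpeptidase that breaks glutathione down outside cells, was at 0.26 and did not pass. *Gss1* and *Gss2*, the glutathione synthetases of the second step, are listed at 0 in every library. These neighbours on the X chromosome have annotated exons of the same total length, 2838 bp, and no level is given for them.

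**Figure D3:**
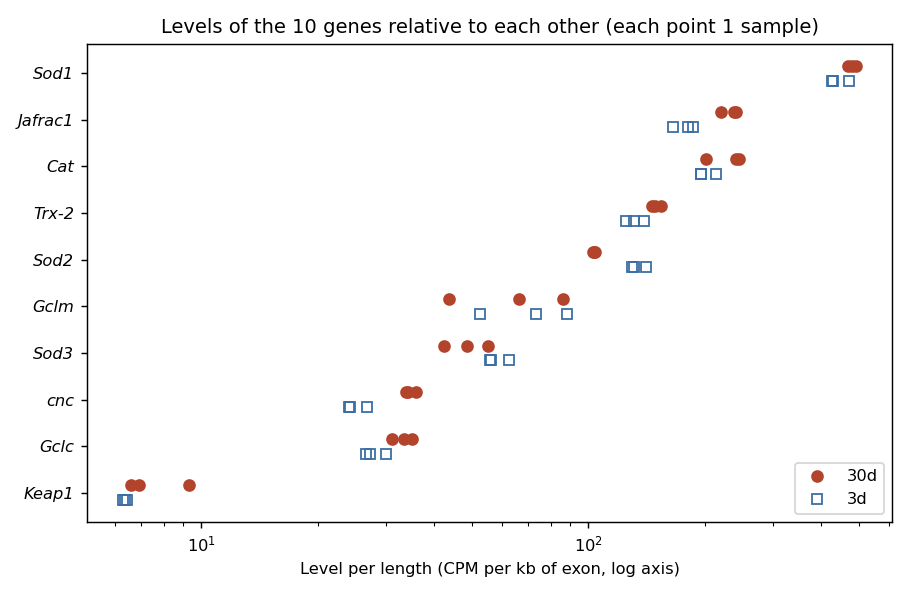
Level of the 10 genes per kb of annotated exon, on a log axis in CPM per kb, with filled circles for 30d samples above open squares for 3d samples. *Sod1* is the highest, at 469 to 492 CPM per kb in the 30d samples and 428 to 473 in the 3d samples, and *Keap1* the lowest, and *Jafrac1* overlaps *Cat* in the 30d samples but lies below it in the 3d samples.

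Divided by the length of annotated exon, the levels of the 10 genes spanned a wide range. That length joins the exons of all transcripts of a gene, of which *cnc* has 16 and *Sod1* has 1. Levels per kb of genes with many transcripts may therefore be understated, and so may their ranks. *Sod1* stood at 481 ± 11.2 CPM per kb at 30d and 443 ± 25.5 CPM per kb at 3d (SD, n = 3 each), above 98.2% of the 8699 tested genes of known exon length. *Jafrac1* and *Cat* followed, at 233 ± 11.5 and 229 ± 23.9 CPM per kb in the 30d heads, where their samples overlapped. In the 3d heads *Cat*, at 202 ± 10.2 CPM per kb, lay apart from *Jafrac1*, at 178 ± 10.9. *Trx-2* was higher per kb than *Sod2* in each 30d sample (149.7 ± 3.91 against 103 ± 0.675 CPM per kb), while in the 3d heads the samples of both overlapped (132 ± 6.96 and 134 ± 6.14). *Gclm*, *Sod3*, *cnc* and *Gclc* came next in the 30d heads, and *Gclm* could not be separated from *Sod3*, nor *cnc* from *Gclc*, at either age. *Keap1* was the lowest, at 7.60 ± 1.502 CPM per kb at 30d and 6.36 ± 0.0643 CPM per kb at 3d, and was the only one of the 10 under the median of the genes tested, with 24.2% of them below it. The spread of *Keap1* at 3d was smaller than counting error on 66 to 81 reads would give.

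Ratios between partner genes within a library do not depend on how libraries are scaled. The 4 pairs were chosen with the levels of their genes known, and 0.1 is the smallest p that an exact permutation test, two-sided, can give at this size. For every 100 reads of *Sod1* there were 29.7, 30.2 and 29.2 reads of *Sod2* in the 30d heads, against 45.6, 38.4 and 41.7 in the 3d heads. The ages did not overlap and the difference was -0.49 on the log2 scale (exact permutation p = 0.1, adjusted p over the 4 pairs = 0.2). For every 100 reads of *Trx-2* there were 121, 127 and 126 reads of *Trxr1* in the 30d heads, against 102, 99.4 and 107 in the 3d heads, again without overlap (log2 difference 0.28, exact permutation p = 0.1, adjusted p over the 4 pairs = 0.2). Reads of *Keap1* per 100 reads of *cnc* were 10.4, 7.21 and 7.19 at 30d, against 9.75, 10.02 and 8.93 at 3d. These ranges overlapped through 30d replicate 1 (log2 difference -0.23, exact permutation p = 0.4, adjusted p over the 4 pairs = 0.5). Reads of *Gclm* per 100 reads of *Gclc* were 42.6, 67.7 and 94.6 at 30d, against 60.0, 93.5 and 111 at 3d. They overlapped widely (log2 difference -0.40, exact permutation p = 0.5, and 0.5 after adjustment), and the difference was -0.09 without 30d replicate 1.

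**Figure D4:**
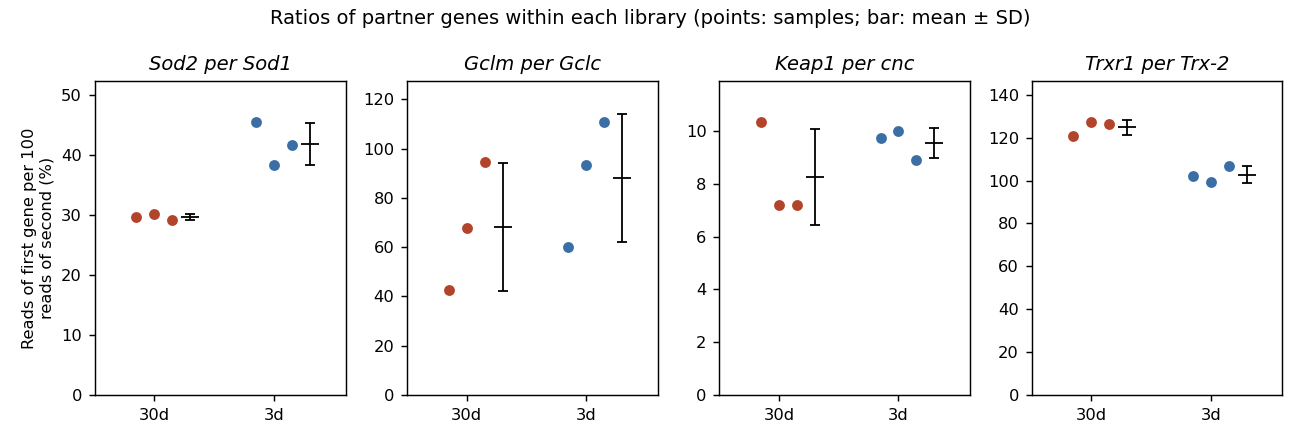
Reads of 1 gene per 100 reads of its partner in the same library, with 30d left of 3d, points for samples and a bar for the mean ± SD. The 30d samples of *Sod2* per *Sod1* lie between 29.2 and 30.2 and the 3d samples between 38.4 and 45.6, whereas the ages overlap for *Gclm* per *Gclc* and *Keap1* per *cnc*.

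Genes known as targets of cnc moved in both directions. Of the 14 on the list, which includes *Gclc*, *Gclm* and *Keap1*, 12 could be tested, of which 4 rose and 1 fell, beside 14.4% and 16.1% of all genes tested, with a median log2 fold change of 0.23. *ref(2)P*, the fly p62 and an autophagy receptor whose gene cnc activates, had 417, 414 and 378 CPM in the 30d heads, against 270.3, 294 and 293 CPM in the 3d heads. It rose by 0.50 on the log2 scale (± 0.08 SE, edgeR adjusted p = 0.000593), and 7.22% of its exon bases are shared with *CG10337*. *GstD2*, a glutathione S-transferase, had 39, 35 and 21 reads in the 30d libraries, against 7, 11 and 7 reads in the 3d libraries. Its log2 fold change of 1.81 ± 0.31 SE (edgeR adjusted p = 0.000980) was the largest among the redox genes, but rests on few reads. *Trxr1* and *Gclc* were the others that rose. *Cyp6a2*, a cytochrome P450 inducible by xenobiotics, fell to 96.7, 109 and 116 CPM in the 30d heads, against 169, 158 and 171 CPM in the 3d heads (log2 fold change -0.63 ± 0.09 SE, edgeR adjusted p = 0.000193).

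*GstD1*, whose enhancer is a common reporter of cnc activity, is named here after its values were seen. It had 303, 315 and 309.8 CPM in the 30d heads, against 243, 289 and 261 CPM in the 3d heads. The ages did not overlap, and the log2 fold change of 0.23 (standard error 0.08) lay at the edge of the test, with an edgeR adjusted p of 0.0530, and *GstD1* passed in 5 of the 13 alternatives. These were scaling by library size alone (0.30), limma-voom, a filter of at least 10 counts in every sample and the replicate block (0.23 in each), and the fit without 3d replicate 2 (0.29). *Jheh1*, *Jheh2*, *Cyp6a8* and *Cyp12d1-p* did not pass, with log2 fold changes between -0.03 and 0.23. *GstD7* had at most 2 reads in a library and *Cyp12d1-d* is listed at 0 in all 6. Almost all exon bases of *Jheh1* and *Jheh2* are shared with an antisense RNA in the annotation used here. Reads in shared bases are left out under the counting rule, yet *Jheh1* had 215 to 316 reads per library and *Jheh2* 488 to 705. The annotation behind the counts thus appears to differ from the one used here at these genes.

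**Figure D5:**
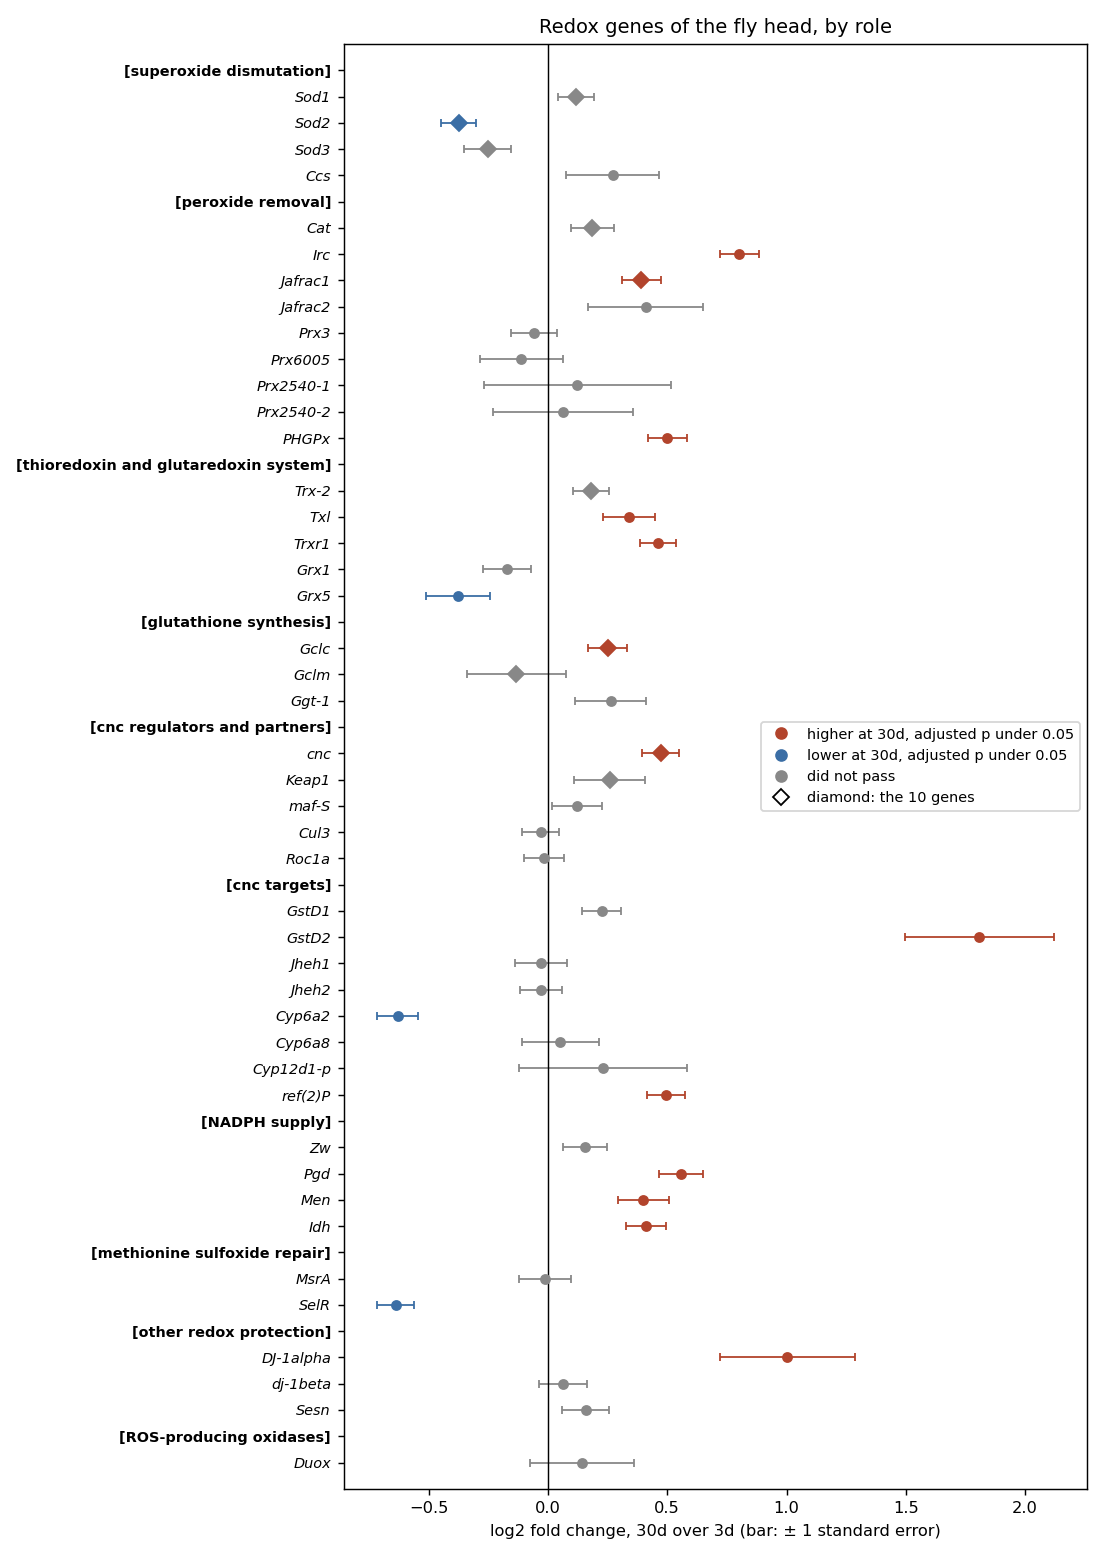
Log2 fold change of 30d over 3d for the 44 redox genes tested, each shown once under its role, with bars of ± 1 standard error, diamonds for the 10 core genes, and colour for genes past an adjusted p-value of 0.05. Of the 44 genes 13 rose and 4 fell, beside 14.4% and 16.1% of all genes tested. *Sod2*, *Grx5*, *Cyp6a2* and *SelR* are the 4 that fell.

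NADPH supplies the electrons of the thioredoxin system, and 3 of the 4 genes listed for its supply rose, where 14.4% of all genes tested did. *Pgd*, phosphogluconate dehydrogenase of the pentose phosphate pathway, had 192, 227 and 214 CPM in the 30d heads, against 137, 158 and 134.5 CPM in the 3d heads. It rose by 0.56 on the log2 scale (± 0.09 SE, edgeR adjusted p = 0.000697). *Idh*, the NADP-dependent isocitrate dehydrogenase, had 572, 565 and 629 CPM in the 30d heads, against 416, 468 and 444 CPM in the 3d heads, and rose by 0.41 (± 0.08 SE, edgeR adjusted p = 0.00238). *Men*, malic enzyme, had 643, 829.8 and 856 CPM in the 30d heads, against 554.5, 627 and 583 CPM in the 3d heads, and rose by 0.40 (± 0.11 SE, edgeR adjusted p = 0.0126). In these 3 of the 4 genes, named here as those that passed, the ages did not overlap, where 44.8% of all genes tested had no overlap. The call on *Men* was lost without 30d replicate 2 (0.35), 30d replicate 3 (0.32) or 3d replicate 3 (0.39). *Zw*, glucose-6-phosphate dehydrogenase, was at 0.16 with a standard error of 0.09 and did not pass, and 16.4% of its exon bases are shared with other genes.

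Among repair and signalling genes, *SelR*, a methionine sulfoxide reductase of the R type, fell by 35.8%, with 116, 112 and 108 CPM in the 30d heads, against 173, 182 and 168 CPM in the 3d heads (log2 fold change -0.64 ± 0.08 SE, edgeR adjusted p = 8.70e-05). *MsrA*, the reductase of the S type, was at -0.01 with a standard error of 0.11. *DJ-1alpha*, a paralog of the redox protein *dj-1beta*, rose by 1.004 (± 0.28 SE, edgeR adjusted p = 0.0169) at 8.74 ± 1.87 CPM in 30d heads and 4.29 ± 1.44 CPM in 3d heads (SD, n = 3 each), and lost the call without 30d replicate 1 (0.92), 30d replicate 2 (0.91) or 3d replicate 1 (0.77). *dj-1beta* itself, at 0.06, and the sestrin gene *Sesn*, at 0.16, did not pass, and 67.4% of the exon bases of *Sesn* are shared with other genes. Of the NADPH oxidases, which make reactive oxygen species, *Duox* was at 0.14 with a standard error of 0.22 and *Nox* had at most 4 reads in a library.

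Over all 53 redox genes listed, 44 could be tested, of which 13 rose and 4 fell, beside the background of 14.4% and 16.1%. Outside the 10 core genes the counts were 10 and 3 of 34 tested, with a median log2 fold change of 0.15. These genes were listed with earlier results of the same data known. The hemocyte markers *Hml*, *NimC1*, *srp* and *Ppn* rose by 0.43 to 0.46 on the log2 scale in the same libraries, and their list summed to 1095, 1363 and 1179 CPM in the 30d heads, against 912, 898 and 855 CPM in the 3d heads. The fat body list summed to 8167, 10217 and 10108 CPM at 30d, against 7849, 7520 and 8083 CPM at 3d. The largest part of that sum was *apolpp*, which did not pass at 0.28 (edgeR adjusted p = 0.0648), and 1 of the 5 fat body markers tested rose. The rises of *Jafrac1*, *Trxr1*, *cnc*, *PHGPx* and *Irc* lay between 0.39 and 0.80, and the part of these cell types in them was not tested.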

How the data were processed

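RNA of fly heads was measured in 3 samples at 30d and 3 at 3d. The authors selected polyadenylated RNA, aligned single-end reads to dm6 with STAR and counted them per gene with HTSeq, in its strict intersection mode and with strand ignored. The deposited values are raw read counts, and 0 sample columns were unused. The annotation release is not given in the sources used here. The study normalized with DESeq, which is not in these values. Reads within exons that overlap another gene are left out under this rule, and names, positions and exon lengths came from Ensembl's annotation of the same assembly, which held 17356 of the identifiers.

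Counts were tested with edgeR 4.0.16 in R 4.3.3 (default filter with a minimum count of 10, TMM, quasi-likelihood test with age only, Benjamini-Hochberg adjustment). The standard error is the log2 fold change over the square root of F. Alternatives used DESeq2 1.42.0, limma 3.58.1, other scalings and filters, the replicate number as a block, and each sample left out. In simulated counts with 200 genes changed by 1 on the log2 scale, 91.0% of the changed genes tested were recovered. All genes were simulated with the common biological coefficient of variation, 0.0857, so that share does not apply to genes as variable as *Gclm*, at 0.176. The largest change among the 10 core genes was 0.47, and the median size over all genes called was 0.49. Recovery of changes of that size was not simulated. Counts have no molecular identifiers, so counting error is a lower limit. Members and lists were chosen with earlier results of these data known. The text names the 10 core genes, all genes of redox lists of 5 or fewer, of longer redox lists those past the threshold or without enough reads, of marker lists the most changed gene, and the 3 genes with the profile nearest to that of the core gene that changed most. Other names were chosen after their values were seen. Of the listed symbols, all 97 were found, 9 through an older name. No sequences are printed, since no sequence table was used here.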

Additional observations from a re-analysis of the deposited data

How the results depend on the processing

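Over the 13 alternatives, 12 of the 17 redox genes called here passed in every fit that tested them, *cnc*, *Jafrac1* and *Sod2* among them, and none of the 17 turned direction. *Gclc*, *Txl*, *Grx5*, *Men* and *DJ-1alpha* lost the call in at least 1. The count of the 10 core genes that rose was 5 instead of 3 with scaling by library size alone. Under that scaling the median log2 fold change over the genes tested was 0.08 higher, with 1715 genes higher and 1053 lower, against 1259 and 1410. The count that fell was 2 instead of 1, through *Sod3*, with every gene of at least 1 count kept, with the replicate block and without 30d replicate 1. With a sample left out, the core genes that rose numbered 2 to 3, those that fell 1 to 2, and those called 3 to 5. DESeq2's Wald test called 741 genes higher and 1066 lower at 30d, against 1259 and 1410 in the main fit. With scaling by library size alone *Cul3*, *Roc1a* and *MsrA*, none of them called, turned to 0.048, 0.059 and 0.066. With a sample left out, *Gclm* ranged from -0.38 to 0.090, *MsrA* from -0.10 to 0.081 and *Duox* from -0.0041 to 0.40. The cause of these shifts was not tested.

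Samples with the same replicate number deviated together with correlations of 0.143, 0.017 and 0.052 across genes. For samples with different numbers the correlations ran from -0.122 to 0.097. The numbers were not taken as pairs in the main fit, and the labels do not say whether samples with the same number shared a batch. The block gave 2907 called genes, against 2669 without it, of which 2646 were shared, and besides *Sod3* it added *GstD1* among the genes named. At this depth genes of a few CPM, such as *GstD2*, rest on few reads.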
